A study of Mus musculus with 16 samples.

Results

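The genes described here code for the metalloproteinases that cut the extracellular matrix and for the inhibitors that hold them in check. They were taken by symbol from the deposited table: the matrix metalloproteinases (Mmp), the disintegrin and metalloproteinase genes (Adam), their relatives with thrombospondin repeats (Adamts), the Adamts-like genes (Adamtsl) and Timp1 to Timp4, the tissue inhibitors of metalloproteinases. This gave 85 of 27179 genes, made up of 23 Mmp, 19 Adamts, 5 Adamtsl, 34 Adam and 4 Timp genes. They were chosen by symbol, with earlier results of these data known.

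Mmp enzymes degrade collagens and other matrix proteins, and the membrane-type ones work at the cell surface, where Mmp14 with Timp2 bound to it activates the secreted zymogen of Mmp2. Adamts enzymes trim proteoglycans such as versican and remove the N-propeptides of fibrillar procollagens. Adamts-like proteins have lost the catalytic domain and bind fibrillin microfibrils, and many Adam proteins shed growth factors and receptors from the membrane. In fat, remodelling of the pericellular collagen around precursors and adipocytes accompanies growth of the tissue, and loss of Mmp14 in mice is known to disturb it.

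The RNA came from C57BL/6 mice at postnatal day 7. Cells expressing Pdgfrb, a growth factor receptor of mural and progenitor cells, were sorted from their epididymal white fat by flow cytometry into 4 populations of 4 libraries each: mesothelial-like cells (MLCs), smooth muscle cells (SMCs), adipocyte precursor cells (APCs) and fibro-inflammatory progenitors (FIPs). No genotype, treatment or reporter allele is named in the labels used here, and all populations share the sort on Pdgfrb, the depot and the age. The labels do not say whether replicates came from separate animals, pools or sorts, so p-values measure only the spread between these libraries. The study's question was how these sub-populations differ. Since every sample is a bulk of sorted cells, a lower value can mean fewer cells that express the gene or less RNA per cell, and these cannot be told apart.

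Libraries held 9.205 to 27.5 M reads (median 21.6 M), and SMCs replicate 3 and APCs replicate 4 were the shallowest. The summed level of 7 mesothelial markers ranged from 120670 to 123646 normalized counts in MLCs, from 9123 to 14527 in SMCs, from 3829 to 4306 in APCs and from 2942 to 3479 in FIPs. Wt1 made nearly all of this sum in APCs (3996) and FIPs (2880). The sum of 6 smooth muscle markers was highest in SMCs, with 3867 to 4448 in MLCs, 6614 to 11755 in SMCs, 1606 to 5067 in APCs and 1735 to 2053 in FIPs. Acta2, Tagln and Cnn1 were called higher in SMCs than in MLCs. Myh11 (1288 in MLCs, 1262 in SMCs), Des and Myocd were not called between them. Precursor markers (6 genes) summed to 1811 to 2146 in MLCs, 38637 to 40446 in SMCs, 71132 to 99954 in APCs and 48534 to 62575 in FIPs. FIP markers (6 genes) summed to 116843 to 130598 in MLCs, 99053 to 159486 in SMCs, 106227 to 154356 in APCs and 587531 to 641135 in FIPs. Fn1 made most of the FIP marker sum, at 130263 in APCs and 560212 in FIPs. The other FIP markers were also lower in APCs than in FIPs. Lpl and Pdgfra made most of the precursor sum in APCs and FIPs and were not called between them. Pparg, Cebpa, Fabp4 and Cd36 were called higher in APCs. The SMC label rests on moderate levels, since Myocd, the master coactivator of smooth muscle, averaged 28.1 in MLCs and 31.1 in SMCs, and Pdgfra, a progenitor gene, stood at 23838 in SMCs. APCs replicate 4 stood apart from the other APC libraries in smooth muscle genes, with 2388 normalized counts of Acta2 against 156 to 221. Markers of mature adipocytes (4 genes) summed to 197 to 227 in MLCs, 243 to 521 in SMCs, 1971 to 2472 in APCs and 126 to 158 in FIPs. Pericyte markers (5 genes) summed to 1424 to 1615 in MLCs, 4225 to 4971 in SMCs, 5134 to 6572 in APCs and 2664 to 2886 in FIPs. Notch3 made most of the pericyte sum in APCs, at 4386 against 1731 in SMCs. Rgs5, Cspg4, Kcnj8 and Abcc9 each averaged higher in SMCs than in APCs, and of these only Cspg4 was called. The part of mature adipocytes or pericytes in the APC differences was not tested. Endothelial genes (6) summed to 2309 to 3233 in MLCs, 2163 to 3217 in SMCs, 361 to 796 in APCs and 272 to 481 in FIPs, mostly from Kdr in MLCs (2485) and Cdh5 in SMCs (1698), while Pecam1 averaged 102 in MLCs, 30.6 in SMCs, 102 in APCs, with 87.8 in FIPs. Of 6 macrophage and myeloid genes, summing to 2353 to 2896 in MLCs, 811 to 978 in SMCs, 493 to 1253 in APCs and 486 to 814 in FIPs, nearly all of the sum was Csf1r (2210 in MLCs) and Cd68. The defining leukocyte genes were near 0, with Ptprc at a mean of at most 5.71 and Adgre1 of at most 6.59, the sum of 5 neutrophil genes at most 6.32 in any library and Ly6g at 0 in all of them.

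Of the 85 genes, 53 passed the filter of at least 10 normalized counts in at least 4 libraries and were tested, namely 12 Mmp, 18 Adamts, 5 Adamtsl, 14 Adam and all 4 Timp genes. The 32 others had a mean of at most 11.4 normalized counts in any population, and 5 of them (Adam6a, Adam20, Adam26a, Adam34 and Mmp12) were at 0 in every library. Among the low ones were all of the interstitial collagenases (Mmp1a, Mmp1b, Mmp8 and Mmp13), the matrilysin Mmp7 and the second gelatinase Mmp9, whose highest library held 7.40. The tested genes were called in a pair of populations at an adjusted p under 0.05 and a fold of at least 2, by limma with Benjamini-Hochberg adjustment over all 15024 genes tested. By this rule 45 of the 53 (84.9%) were called in at least 1 of 6 pairs, against 42.5% of all genes tested. The pairs share libraries, so their counts are not independent.

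**Figure D1:**
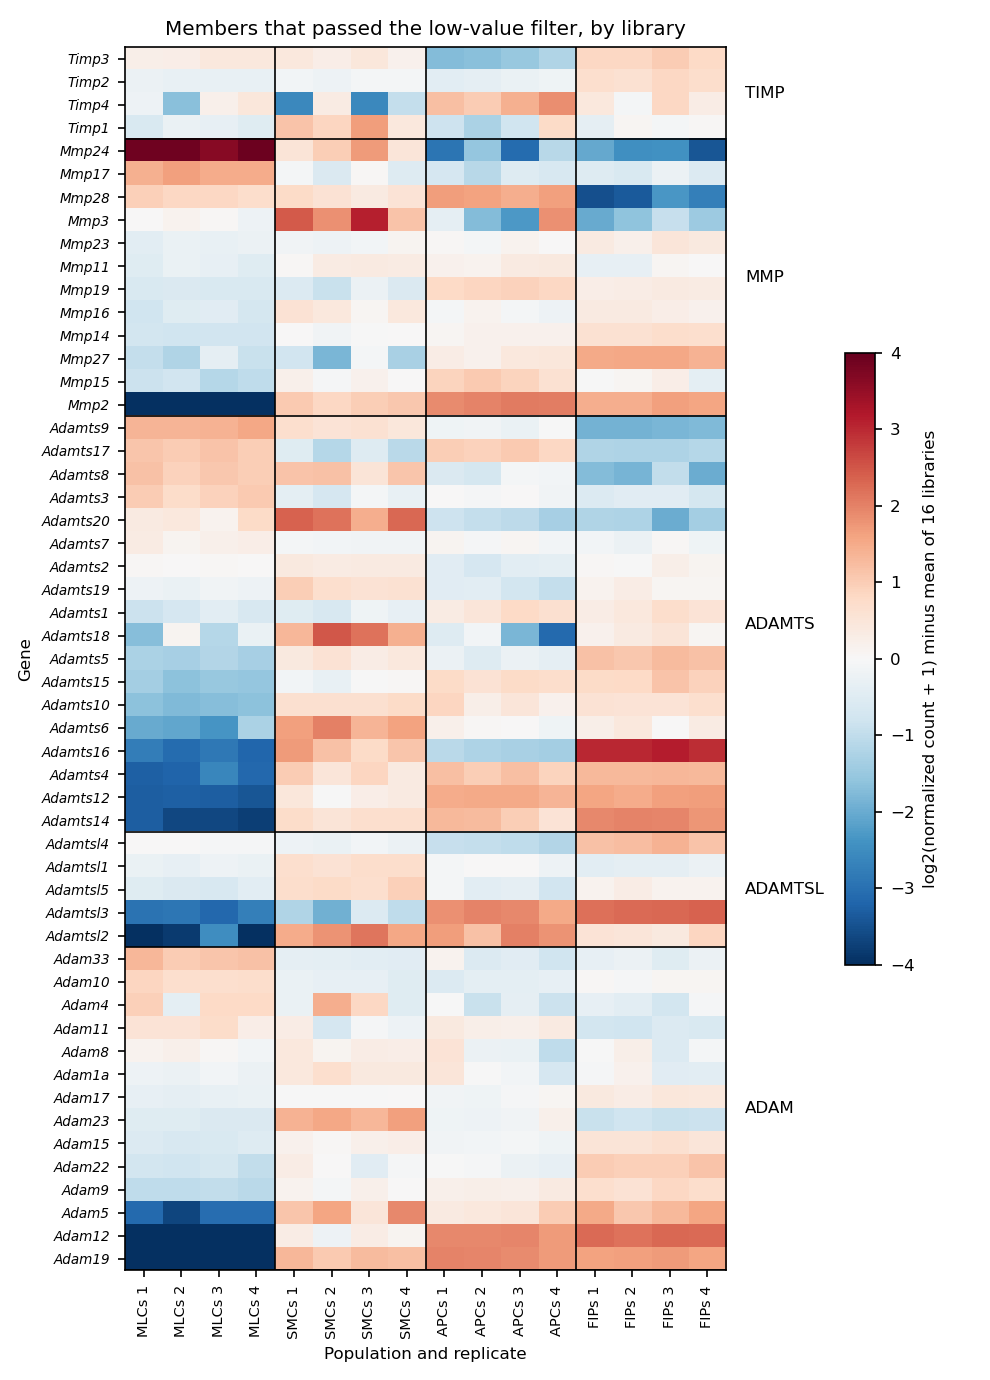
Heat map of the 53 tested genes (rows, grouped by family) in 16 libraries (columns, in the order MLCs, SMCs, APCs, FIPs), coloured by log2(normalized count + 1) minus the mean of the gene over the 16 libraries, with the scale ending at 4 in either direction. The MLC columns hold the deepest blue, in Mmp2, Adam12, Adam19, Adamtsl2, Adamts12 and Adamts14, and the deepest red in Mmp24.

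MLCs stood furthest from the rest. Most of the matrix-degrading genes that moved were lower in them, and the gelatinase Mmp2 and the membrane proteases Adam12 and Adam19 were almost absent compared with the other 3 populations. A small number went the other way, led by Mmp24. Between MLCs and SMCs 28 of the 53 passed the rule, of which 6 were higher in MLCs (14.4% of all genes) and 22 lower (13.5%), with 27.9% of all genes called in that pair. Against APCs 28 passed (29.6% of all genes), 9 of them higher in MLCs (17.7%) and 19 lower (11.8%). Against FIPs 32 passed (31.1% of all genes), 11 of them higher in MLCs (18.6%) and 21 lower (12.5%). The median log2 fold change of the 53 genes was -0.75 against SMCs, -0.45 against APCs and -0.71 against FIPs, where the medians of all genes were 0.04, 0.02 and 0.02.

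Lower in MLCs than in each of the other populations were 14 genes (26.4% of those tested, against 7.89% of all genes). Mmp2, the gelatinase that cuts basement membrane collagen and gelatin (chr8:92827290-92853421, plus strand), had 273, 401, 299 and 296 normalized counts in MLCs, 14849, 12876, 14288 and 15066 in SMCs, 26940, 28811, 30127 and 30055 in APCs, and 19635, 19834, 22350 and 21482 in FIPs. No MLC library came near any library of the other populations, and the 4 populations did not overlap each other. The log2 fold change of MLCs was -5.50 against SMCs, -6.52 against APCs and -6.05 against FIPs, each with an SE of 0.090 and adjusted p of 7.41e-20, 5.53e-21 and 9.87e-21 by limma. Mmp14, which activates the Mmp2 zymogen, was also lowest in MLCs, but by far less: 7798 ± 138 in MLCs, 13021 ± 636 in SMCs, 14672 ± 437 in APCs, with 20828 ± 703 in FIPs (SD, n = 4 each), and it passed the rule only against FIPs (log2 fold change -1.42).

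Adam19, a sheddase of the neuregulins (chr11:46054502-46147347, plus strand), had 82.1, 85.4, 87.8 and 78.3 normalized counts in MLCs. SMCs had 5631, 4622, 5306 and 5170, APCs 8886, 8590, 8185 and 7200, and FIPs 6799, 6955, 7217 and 6677. The MLC libraries lay apart from all others, at 61.3-fold lower than SMCs, 97.1-fold lower than APCs and 81.9-fold lower than FIPs. Adam12, its close relative that marks perivascular mesenchymal progenitors in mouse muscle and fat (chr7:133883199-134225097, minus strand), had 194, 234, 215 and 188 in MLCs and 4858, 3444, 4919 and 4300 in SMCs. APCs held 15212, 15116, 15403 and 13071 and FIPs 19050, 18109, 19535 and 19346 of Adam12. All 4 populations were separate in Adam12, MLCs lowest and FIPs highest, and the log2 fold change of MLCs was -4.38, -6.14 and -6.51 against SMCs, APCs and FIPs.

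The Adamts-like gene Adamtsl2, which binds fibrillin and a latent TGF-beta binding protein, was nearly silent in MLCs, with 0.838, 1.69, 5.90 and 0 normalized counts. It had 105, 133, 167 and 110 in SMCs, 122, 85.6, 154 and 133 in APCs, and 55.4, 52.7, 48.7 and 68.9 in FIPs. MLCs did not overlap any other population, and FIPs lay below SMCs and APCs. The log2 fold change of -5.72 against SMCs rests on a few reads in MLCs and ran from -3.77 to -6.98 with the value added before the logarithm. The other 10 genes lower in MLCs than in all others were the proteoglycanases Adamts4 and Adamts15, the procollagen N-propeptidase Adamts14, the COMP-cleaving Adamts12, the microfibril-associated Adamts6 and Adamts10, and Adamts16, Adamtsl3, Adam5 and Adam9. The smallest of their differences was that of Adam9 (log2 fold change -1.10 against SMCs). Adamts12 averaged 526 in MLCs, 6390 in SMCs, 14657 in APCs, with 15954 in FIPs, and Adamts14 averaged 76.0, 1434, 1916 and 3453 in the same order.

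**Figure D2:**
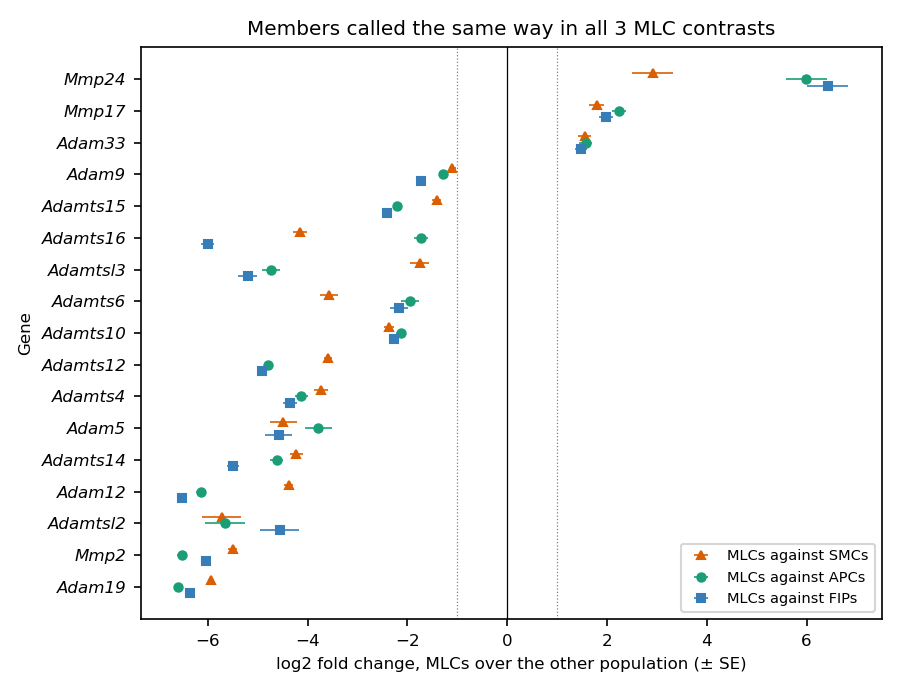
log2 fold changes (x axis, MLCs over the other population, bars ± SE from limma) of the 3 genes higher and 14 genes lower in MLCs than in each other population (y axis), with dotted lines at 1 and -1. Mmp24 is farthest right, at 6.42 against FIPs, and Adam19, Mmp2 and Adam12 are farthest left.

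Higher in MLCs than in every other population were 3 genes (5.66% of those tested, against 10.6% of all genes), and 2 of them are membrane-type Mmps. Mmp24, a membrane-type enzyme known from neurons that cleaves N-cadherin, and Mmp3, a secreted stromelysin whose place in SMCs is described with the SMCs, have start-site regions of contrasting make-up, and those of both and of Timp3 are shown because these genes separate the populations. Each line gives the 250 bases before the start of the gene in RefSeq on GRCm38.p6, plus strand, 5′ to 3′, for chr2:155775092-155775341, chr9:7445572-7445821 and chr10:86300162-86300411. Capitals mark 3 motifs. The GC box was searched as GGGCGG on both strands. The motif of the AP-1 factors was searched as TGANTCA, also on both strands. The TATA box was searched as TATAAA on the sense strand alone, and no marked motif overlaps another.
Mmp24: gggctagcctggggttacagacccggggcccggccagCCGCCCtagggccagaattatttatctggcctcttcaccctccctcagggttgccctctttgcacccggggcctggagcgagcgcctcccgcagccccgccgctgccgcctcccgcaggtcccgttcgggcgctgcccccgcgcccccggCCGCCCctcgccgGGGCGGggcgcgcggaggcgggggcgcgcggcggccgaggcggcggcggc
Mmp3: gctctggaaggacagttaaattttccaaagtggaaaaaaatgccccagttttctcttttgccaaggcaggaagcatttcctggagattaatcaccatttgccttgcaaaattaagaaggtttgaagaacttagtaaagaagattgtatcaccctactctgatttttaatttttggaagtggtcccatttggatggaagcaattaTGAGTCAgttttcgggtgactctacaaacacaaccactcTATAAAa
Timp3: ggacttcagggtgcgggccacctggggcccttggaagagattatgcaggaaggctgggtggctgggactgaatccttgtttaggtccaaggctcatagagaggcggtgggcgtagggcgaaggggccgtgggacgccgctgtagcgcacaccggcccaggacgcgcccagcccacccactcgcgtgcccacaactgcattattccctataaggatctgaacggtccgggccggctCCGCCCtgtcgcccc
The Mmp24 window is 79.2% G and C and held 3 GC boxes, that of Timp3 is 65.6% G and C with 1, and that of Mmp3 is 37.6% G and C, with an AP-1 motif 46 bases and a TATA box 7 bases before the start. An AP-1 motif was found in 6.75% of all 32851 windows and in 12 of the 59 windows (20.3%) that matched 54 of the 85 genes. TATA boxes were in 7.59% of all windows and 11 of the 59, and GC boxes in 32.7% of all windows and 24 of the 59. Of the 54 matched genes, 33 passed the filter. Among those with an AP-1 motif, only Adam19 and Mmp3 passed it. Among those with a TATA box, only Adamts1, Adamtsl2 and Mmp3 passed, while all with a GC box but Mmp25 did. The higher AP-1 and TATA shares thus come mostly from genes too low to be tested here. A match is a description of letters, not of a bound site.

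Mmp24 had 302, 305, 255 and 313 normalized counts in MLCs, 28.4, 39.5, 66.2 and 27.6 in SMCs, 1.69, 6.04, 1.43 and 8.65 in APCs, and 3.96, 2.77, 2.86 and 0.907 in FIPs. MLCs were high in every library, SMCs were intermediate, and APCs and FIPs overlapped near the floor of detection. The log2 fold change was 2.92 ± 0.42 (SE) against SMCs, 6.00 against APCs and 6.42 against FIPs (adjusted p = 4.83e-06, 1.34e-10 and 4.30e-11 by limma), and adding 8 in place of 1 before the logarithm gave 4.64 against APCs and 4.83 against FIPs. SMC libraries held 9.39% to 22.5% of the MLC mean of Mmp24, and their mesothelial marker sum was 7.45% to 11.9% of the MLC mean. That sum includes Wt1, at 3023 in SMCs and 11868 in MLCs, which APCs and FIPs also held (3996 and 2880). Msln averaged 641 in SMCs and 14396 in MLCs, and Upk3b 3528 and 40551. Whether mesothelial cells in the SMC gate gave the Mmp24 reads there was not tested.

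Mmp17, a glycolipid-anchored membrane-type enzyme, had 675, 783, 701 and 700 normalized counts in MLCs, 236, 169, 258 and 174 in SMCs, 156, 116, 174 and 161 in APCs, and 176, 163, 216 and 173 in FIPs. MLCs lay above all others and the other 3 populations overlapped, with log2 fold changes of 1.79 against SMCs, 2.24 against APCs and 1.97 against FIPs. Adam33, an Adam of mesenchymal cells linked to asthma in people, averaged 3209 ± 283 in MLCs, 1090 ± 35.1 in SMCs, 1107 ± 325 in APCs, with 1150 ± 96.4 in FIPs (SD, n = 4 each). MLC libraries held 3578, 2895, 3138 and 3223 of Adam33, and SMC libraries 1132, 1106, 1068 and 1056. APC libraries held 1573, 980, 1051 and 823, and FIP libraries 1138, 1220, 1019 and 1224. The lowest MLC library of Adam33, 2895, lay above the highest of the 12 others, 1573 in APCs. The sheddase Adam10 was higher in MLCs (4516 ± 268) than in SMCs (2136 ± 131) and APCs (2051 ± 122), by 1.08 and 1.14 on the log2 scale, and FIPs averaged 2786 ± 99.8. Of the other membrane-type genes, Mmp15 was lower in MLCs, at 99.4 against 205 in SMCs and 350 in APCs, and Mmp16 was not called in any pair.

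Of the inhibitors, MLCs kept Timp2 and Timp3 at levels near those of SMCs although their Mmp2 was low, APCs had the lowest Timp3, and FIPs had the most Timp2 and Timp3. Timp3, the matrix-bound inhibitor that also blocks Adam17 and the proteoglycanases Adamts4 and Adamts5 (chr10:86300412-86349505, plus strand), had 4676, 4736, 5216 and 5227 normalized counts in MLCs, 5311, 4754, 5361 and 4440 in SMCs, 1173, 1227, 1385 and 1691 in APCs, and 6978, 7009, 7949 and 6858 in FIPs. APCs were lowest in every library, MLCs and SMCs overlapped, and FIPs were highest in every library. Timp3 was lower in APCs than in each other population, and APCs had no other such gene (1.84% of all genes). APCs fell below FIPs by 2.41 on the log2 scale (SE 0.093, adjusted p = 2.20e-13 by limma), and MLCs and SMCs each exceeded APCs by 1.87.

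Timp2 (chr11:118301061-118355411, minus strand) had 24594, 23962, 23782 and 23524 normalized counts in MLCs, 26842, 25207, 27915 and 27439 in SMCs, 21748, 22737, 24412 and 25668 in APCs, and 46725, 44977, 51949 and 47533 in FIPs. FIPs lay above all other libraries, and APCs overlapped both MLCs and SMCs. APCs were called lower than FIPs at 2.02-fold, just past the threshold. The call was lost when values were rescaled to equal library totals (log2 fold change -0.77) or quantile-normalized (-0.70), and with edgeR on recovered reads (-0.996), and also without APCs replicate 1 (-0.98), APCs replicate 2 (-0.999) or FIPs replicate 3 (-0.98).

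Timp1, a soluble inhibitor induced in wounded tissue (chrX:20870166-20874737, plus strand), had 287, 370, 352 and 316 normalized counts in MLCs, 976, 806, 1413 and 590 in SMCs, 250, 184, 252 and 752 in APCs, and 341, 464, 415 and 457 in FIPs. SMCs were highest on average, and APCs replicate 4 alone among the APCs reached into their range. SMCs were higher than APCs by 1.55 and than FIPs by 1.11 on the log2 scale, and MLCs were lower than SMCs by 1.45 (adjusted p = 3.08e-04, 0.0052 and 4.13e-04 by limma). Without SMCs replicate 3 the difference from FIPs was 0.89 and not called. APCs replicate 4, the library with the high Acta2, was also the one with high Timp1, and leaving it and SMCs replicate 3 out gave 1.77 for SMCs against APCs; the part of smooth muscle cells in that library's Timp1 was not tested. Timp4, an inhibitor of heart and fat, was close to the floor, at 4.19, 0.846, 5.90 and 7.04 in MLCs, 0, 6.40, 0 and 2.04 in SMCs, 12.7, 11.1, 15.01 and 20.8 in APCs, and 6.93, 4.62, 9.55 and 6.35 in FIPs. APCs lay above all other libraries in Timp4. Only APC libraries reached 10 normalized counts, so Timp4 passed the filter through APCs alone. The calls of Timp4 against APCs are therefore not independent of the filter. Its call of MLCs against APCs (log2 fold change -1.69) was lost with 0.1 (-2.004) or 8 (-0.88) added in place of 1 before the logarithm, and without MLCs replicate 2 (-1.23). That of SMCs against FIPs (-1.81) was lost with 8 added (-0.59), with edgeR (-1.49) and DESeq2 (-1.54) on recovered reads, and without SMCs replicate 1 or replicate 3 (-1.44 each).

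**Figure D3:**
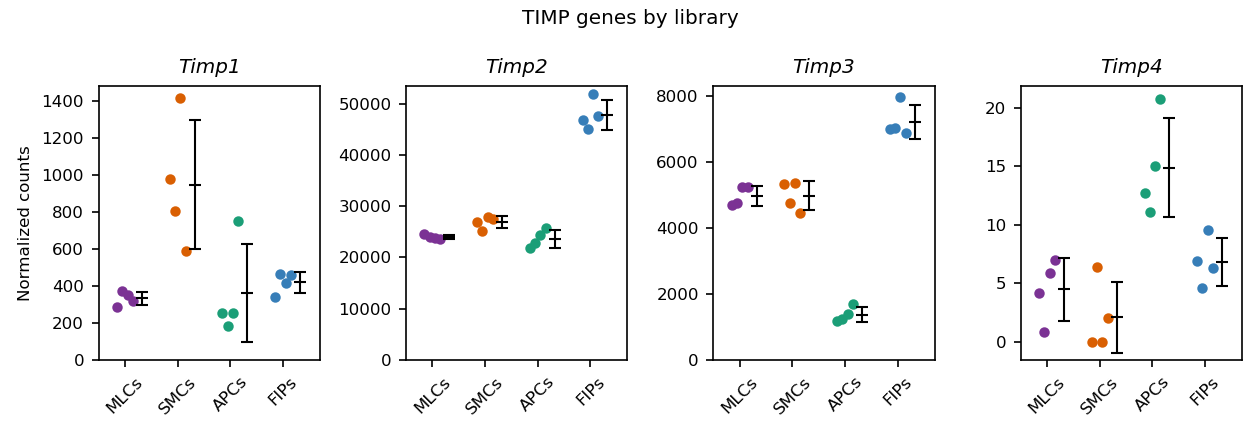
Normalized counts of Timp1, Timp2, Timp3 and Timp4 (y axes, each on its own linear scale) in the 4 libraries of MLCs, SMCs, APCs and FIPs (dots), with the mean and SD beside them (bars). APCs are lowest in Timp3 at 1173 to 1691, FIPs highest in Timp2 at 44977 to 51949, and 1 APC dot of Timp1 stands at 752.

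The inhibitors Timp1, Timp3 and Timp4 lie within the spans of the synapsin genes Syn1, Syn3 and Syn2, in that order. The strand setting of the counting is not given in the sources used here, so reads of a Timp gene and its host cannot be fully told apart. Syn3 averaged 203 in MLCs, 535 in SMCs, 37.9 in APCs, with 35.5 in FIPs, against 4964, 4966, 1369 and 7198 of Timp3. Syn1 averaged 19.0, 66.2, 33.8 and 56.7 in MLCs, SMCs, APCs and FIPs, against 331, 946, 360 and 419 of Timp1. Syn2 averaged 6.02, 2.87, 2.10 and 0.944 in the same order, against 4.49, 2.11, 14.9 and 6.86 of Timp4, so it was above Timp4 in MLCs and SMCs. The part of host-gene reads in the Timp values was not tested.

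In SMCs, 6 genes were higher than in every other population (11.3% of those tested, against 2.75% of all genes) and 0 were lower (0.313% of all genes). Between SMCs and APCs 21 genes passed the rule (17.2% of all genes), 12 of them higher in SMCs (13.5%) and 9 lower (3.79%). Against FIPs 22 passed (17.9% of all genes), 12 of them higher in SMCs (13.3%) and 10 lower (4.6%). The 6 genes were Mmp3, Adamts20, Adamts18, Adam23, Adamts6 and Timp1, of which Adamts18 passed the filter only through SMCs. Without SMCs replicate 3 and APCs replicate 4 this number was 5, with Timp1 no longer among them.

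Adamts20, a versican-cleaving enzyme needed for pigment cell spread in mouse skin, had 121, 123, 102 and 158 normalized counts in MLCs, 477, 426, 256 and 459 in SMCs, 51.6, 47.3, 44.3 and 36.3 in APCs, and 39.6, 38.8, 22.9 and 35.4 in FIPs. SMCs were highest in every library, MLCs came next, and APCs and FIPs overlapped at the bottom. SMCs exceeded APCs by 3.11 and FIPs by 3.52 on the log2 scale, and MLCs were lower than SMCs by 1.65 while exceeding APCs by 1.46 and FIPs by 1.87. Adam23, a neural Adam without protease activity that binds the LGI proteins, had 963, 954, 897 and 898 in MLCs, 3466, 3877, 3324 and 4200 in SMCs, 1197, 1156, 1210 and 1523 in APCs, and 723, 761, 718 and 728 in FIPs. The 4 populations did not overlap in Adam23, and SMCs exceeded FIPs by 2.34 and APCs by 1.55 on the log2 scale.

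Adamts6, which acts on microfibrils with its relative Adamts10, had 58.6, 56.7, 46.5 and 99.5 normalized counts in MLCs, 742, 971, 619 and 728 in SMCs, 279, 250, 240 and 213 in APCs, and 280, 323, 243 and 299 in FIPs. SMCs were highest and MLCs lowest in every library, and APCs and FIPs overlapped. SMCs exceeded APCs by 1.62 and FIPs by 1.403 on the log2 scale, and MLCs were lower than SMCs by 3.57. Adamts10 averaged 1661 in MLCs, 8618 in SMCs, 7373 in APCs, with 8022 in FIPs, and was not called between SMCs and either progenitor population.

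Mmp3, stromelysin 1, which cuts proteoglycans and activates other Mmp zymogens (chr9:7445822-7455975, plus strand), had 39.4, 43.1, 39.8 and 33.5 normalized counts in MLCs, 220, 141, 342 and 87.9 in SMCs, 30.4, 11.1, 7.15 and 142 in APCs, and 8.90, 12.02, 20.05 and 13.6 in FIPs. SMCs were highest but uneven, and APCs replicate 4 overlapped them, as it did for Timp1. The log2 fold change of SMCs was 3.64 ± 0.61 (SE) against FIPs and 2.77 against APCs, and MLCs were lower than SMCs by 2.14 (adjusted p = 5.14e-05, 7.89e-04 and 0.0045 by limma). Without APCs replicate 4 the value against APCs was 3.59, and edgeR and DESeq2 on the recovered reads gave 1.89 and 1.75. Adamts18 was low, at 4.81 ± 3.08 in MLCs, 32.5 ± 13.0 in SMCs, 3.39 ± 3.24 in APCs, with 9.67 ± 1.45 in FIPs (SD, n = 4 each), and SMCs were higher than each. Outside SMCs, only FIPs replicates 2 and 3 reached 10 normalized counts (10.2 and 11.5), so Adamts18 passed the filter through SMCs. Its calls in SMCs are therefore not independent of the filter.

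APCs and FIPs, the progenitor populations, had the fewest calls of the 6 pairs. The rule separated them in 13 genes (10.4% of all genes), of which 5 were higher in APCs (5.22%) and 8 lower (5.2%). With values rescaled to equal library totals 8 were higher in APCs and 5 lower. APCs had 0 genes higher than in each other population (1.07% of all genes). APCs had more Mmp28, Adamts17, Adamts9, Adamts8 and Adamtsl2. FIPs had more Adamts16, Timp3, Adamtsl4, Adamts18, Adamts5, Mmp27, Adam22 and Timp2. Adamts18 was low in both, with a mean of 3.39 in APCs and 9.67 in FIPs. The Adamtsl2 call (log2 fold change 1.10) was lost in 10 of 27 alternatives, among them leaving out APCs replicate 1, 3 or 4 or FIPs replicate 1, 2 or 3, with values of 0.98 to 1.10.

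Adamts16, an Adamts known from kidney and gonads (chr13:70727798-70841845, minus strand), had 132, 105, 123 and 97.7 normalized counts in MLCs and 2948, 2009, 1522 and 1923 in SMCs. APCs had 422, 382, 366 and 346 and FIPs 7307, 7256, 7988 and 6968. The 4 populations were fully separate in the order FIPs, SMCs, APCs and MLCs, with the APC libraries 19.5-fold lower than those of FIPs (log2 fold change -4.28 ± 0.14 SE, adjusted p = 2.21e-14 by limma). FIPs were higher than each other population in 4 genes (7.55% of those tested, against 1.5% of all genes), the others being Adamtsl4, Mmp27 and Adam22. With values rescaled to equal library totals, Adamtsl4, Mmp27 and Adam22 each lost a call needed for this, and Adamts16 kept its calls.

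Adamtsl4, a fibrillin-binding protein whose loss displaces the lens, had 3228, 3219, 3107 and 3092 normalized counts in MLCs and 2781, 2665, 2989 and 2705 in SMCs. APCs had 1701, 1644, 1599 and 1427, and FIPs 7263, 7545, 8394 and 7026. FIPs were highest, APCs lowest, and no populations overlapped. APCs were lower than FIPs by 2.25 on the log2 scale, SMCs were lower by 1.44, and MLCs were lower by 1.25, or by 0.92 and not called with equal library totals.

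Adam22, the partner of Adam23 in binding LGI proteins, had 263, 250, 271 and 224 normalized counts in MLCs, 545, 443, 320 and 425 in SMCs, 434, 429, 371 and 351 in APCs, and 893, 852, 846 and 963 in FIPs. FIPs lay above all others and SMCs overlapped APCs. The log2 fold change of APCs against FIPs was -1.17, and with equal library totals it was -0.92 and not called. SMCs were lower than FIPs by 1.06, a call lost without SMCs replicate 3 (-0.92) and with equal library totals (-0.84). Mmp27, a stromelysin-like gene beside Mmp8, had 18.4, 15.2, 28.0 and 19.4 in MLCs, 21.1, 9.61, 34.2 and 14.3 in SMCs, 44.8, 41.3, 48.6 and 50.1 in APCs, and 106, 107, 109 and 97.9 in FIPs. FIPs were again highest, MLCs overlapped SMCs, and the log2 fold change of APCs against FIPs was -1.17, or -0.93 and not called with equal library totals.

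Mmp28, epilysin, known from epidermis and lung (chr11:83440768-83463040, minus strand), had 129, 118, 119 and 109 normalized counts in MLCs and 115, 100, 85.4 and 97.1 in SMCs. APCs had 216, 203, 183 and 209 and FIPs 4.95, 5.55, 12.4 and 9.07. FIPs were lowest by a wide margin, APCs highest, and MLCs overlapped SMCs. APCs exceeded FIPs by 4.58 ± 0.21 (SE) on the log2 scale (adjusted p = 1.49e-12 by limma). MLCs exceeded FIPs by 3.81 and SMCs exceeded FIPs by 3.55. With few reads in FIPs, the value of APCs against FIPs ranged from 3.74 to 4.80 over the alternatives and was called in each. The gene 1700020L24Rik overlaps the end of Mmp28 and was likewise highest in APCs and lowest in FIPs (49.0 in MLCs, 54.4 in SMCs, 82.1 in APCs, with 4.45 in FIPs), and which of the overlapping genes gave the shared reads was not tested.

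Adamts9 and Adamts8 were also lower in FIPs than in each other population, so that with Mmp28 FIPs had 3 such genes (5.66% of those tested, against 1.96% of all genes). Adamts9, which cleaves versican, had 2859, 2830, 2875 and 3205 normalized counts in MLCs, 1758, 1613, 1691 and 1521 in SMCs, 981, 993, 911 and 1096 in APCs, and 299, 300, 308 and 323 in FIPs. The populations did not overlap and stepped down in the order MLCs, SMCs, APCs and FIPs, with MLCs 9.54-fold above FIPs and APCs 3.23-fold above FIPs. Adamts8, an inhibitor of blood vessel growth in assays, had 317, 269, 302 and 280 in MLCs, 313, 317, 203 and 303 in SMCs, 93.8, 86.6, 133 and 130 in APCs, and 41.6, 37.9, 71.6 and 35.4 in FIPs. MLCs and SMCs overlapped at the top, and APCs exceeded FIPs by 1.26 on the log2 scale.

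Adamts17, a microfibril-associated enzyme altered in a Weill-Marchesani-like syndrome, had 3684, 3462, 3784 and 3375 normalized counts in MLCs and 1221, 783, 1191 and 817 in SMCs. APCs had 3387, 3272, 3509 and 3054 and FIPs 740, 736, 732 and 777. MLCs and APCs shared the high level, and SMCs and FIPs were low. APCs exceeded FIPs by 2.14 on the log2 scale, MLCs exceeded SMCs by 1.86 and FIPs by 2.26, and SMCs were lower than APCs by 1.75. Adamts5, the main aggrecanase of mouse cartilage, had 6502, 5438, 6612 and 5948 in APCs and 17559, 16267, 18482 and 17405 in FIPs. APCs were lower than FIPs by 1.51 on the log2 scale, with no overlap.

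**Figure D4:**
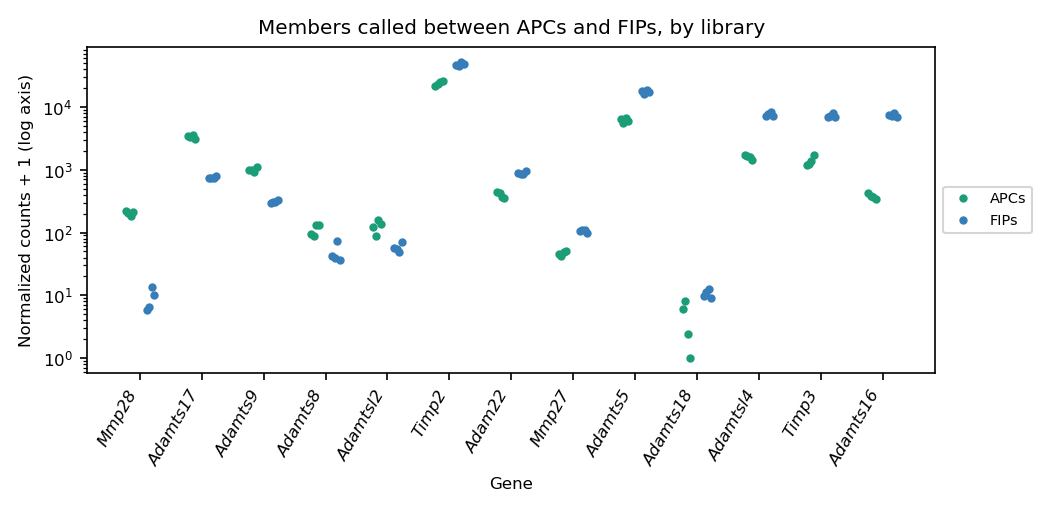
Normalized counts plus 1 (y axis, log scale) of the 13 genes called between APCs and FIPs (x axis, from the most APC-high to the most FIP-high), each dot a library. APCs lie above FIPs in the first 5 genes, from Mmp28 to Adamtsl2, and below FIPs in the 8 genes from Timp2 to Adamts16.

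By role, MLCs were higher in 0 (14.4% of all genes) and lower in 4 (13.5%) of the 7 proteoglycanases against SMCs. Against APCs, MLCs were higher in 3 (17.7% of all genes) and lower in 3 (11.8%). Against FIPs, MLCs were lower in Adamts1, Adamts4, Adamts5 and Adamts15 (12.5% of all genes) and higher in Adamts8, Adamts9 and Adamts20 (18.6%). Adamts1 averaged 14629 ± 1830 in MLCs, 17454 ± 2395 in SMCs, 34026 ± 4966 in APCs, with 32492 ± 4053 in FIPs (SD, n = 4 each), and Adamts4 averaged 202 ± 44.9, 2698 ± 599, 3494 ± 375 and 4090 ± 53.0 in the same order. Versican, Vcan, the proteoglycan that several of them cut, averaged 5439 in MLCs, 22158 in SMCs, 18345 in APCs, with 27444 in FIPs, and MLCs were lower than each of the others. Adamts1 and Adamts5 lie 55.0 kb apart on chromosome 16, and between APCs and FIPs only Adamts5 was called; Adamts15 and Adamts8 lie 20.1 kb apart on chromosome 9, and MLCs were lower than APCs in Adamts15 (log2 fold change -2.21) but higher in Adamts8 (1.41).

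Each of the 3 procollagen N-propeptidases had its own pattern. Adamts2, the major one, averaged 9386 in MLCs, 11758 in SMCs, 6568 in APCs, with 9755 in FIPs and was not called in any pair. Adamts14 was lowest in MLCs, as above, and SMCs were lower than FIPs (log2 fold change -1.27). Adamts3, which acts on the lymphatic growth factor VEGF-C, averaged 543 ± 51.2 in MLCs, 224 ± 36.9 in SMCs, 277 ± 13.6 in APCs, with 196 ± 15.8 in FIPs (SD, n = 4 each), and MLCs exceeded SMCs by 1.29 and FIPs by 1.47. The 8 tested genes called in no pair were Adamts2, Mmp11, Mmp16, Mmp23, Adam17, Adam1a, Adam8 and Adamts7. Adam17, the sheddase of tumour necrosis factor, averaged 1322 ± 33.1 in MLCs, 1631 ± 21.8 in SMCs, 1565 ± 127 in APCs, with 2151 ± 111 in FIPs.

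To compare levels between genes, normalized counts were divided by the length of all exons of a gene in kb. On this scale Timp2 led in MLCs (6461 ± 123 per kb), in SMCs (7239 ± 318) and in FIPs (12886 ± 800), and Mmp2 led in APCs (9416 ± 484). Adamts1 came second in MLCs (2995 per kb) and APCs (6967) and stood behind Timp2 and Mmp2 in SMCs (3574) and FIPs (6653). The 4 Timp genes held 31.1% ± 0.504 of the summed level per kb of the 53 genes in MLCs, 23.1% ± 1.05 in SMCs, 14.9% ± 1.38 in APCs, with 24.7% ± 0.325 in FIPs (SD, n = 4 each). Mmp genes held 20.8%, 28.6%, 37.3% and 27.9% in MLCs, SMCs, APCs and FIPs.

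The ratio of the summed Timp level to the summed Mmp level per kb was 1.49 ± 0.0486 in MLCs, 0.808 ± 0.0577 in SMCs, 0.399 ± 0.0335 in APCs, with 0.883 ± 0.0173 in FIPs (SD, n = 4 each). MLCs were the population with more Timp than Mmp RNA on this scale in every library, from 1.45 to 1.56, and APCs the one with least Timp, from 0.378 to 0.449. SMC libraries ranged from 0.734 to 0.872 and FIP libraries from 0.860 to 0.901, so these overlapped. Mmp2 alone held 0.407% of the summed level per kb for MLCs, against 11.4% (SMCs), 19.8% (APCs) and 11.2% (FIPs). Much of the gap between MLCs and both SMCs and FIPs is therefore the Mmp2 difference itself. By the mean shares, the Mmp genes other than Mmp2 together held less than the Timp genes in SMCs and FIPs too. In APCs these Mmp genes held more than the Timp genes. The ratio without Mmp2 was not computed for each library. The ratio is of RNA and not of active enzyme, and with the longest transcript as the length it was 1.35, 0.749, 0.377 and 0.812 in MLCs, SMCs, APCs and FIPs.

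**Figure D5:**
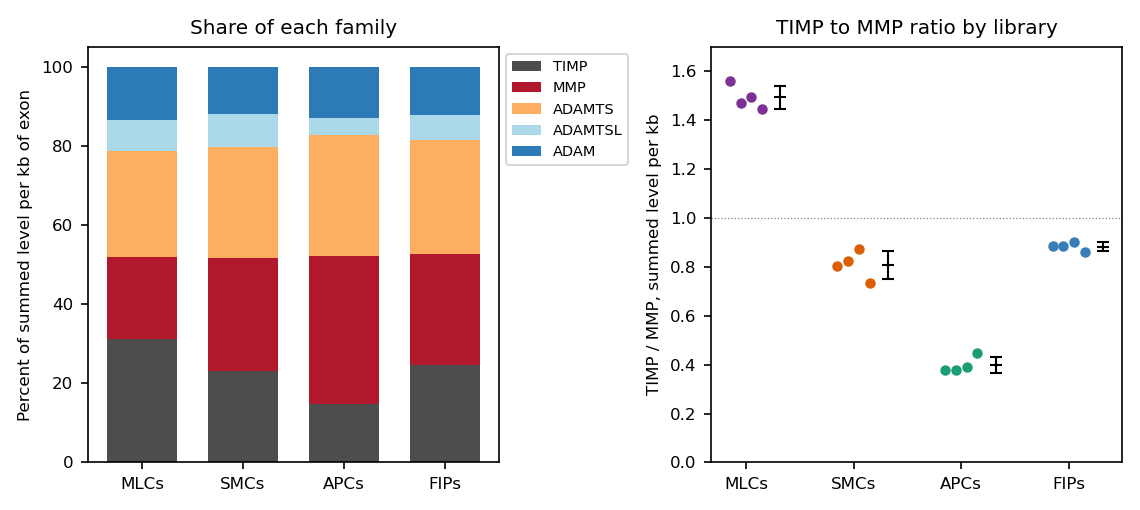
Left, the mean share of each family (stacked colours, percent) in the summed level per kb of exon of the 53 tested genes in MLCs, SMCs, APCs and FIPs; right, the ratio of the summed Timp to the summed Mmp level per kb in each library (dots) with mean and SD (bars) and a dotted line at 1. The MLC dots lie above 1, and the APC dots, at 0.378 to 0.449, lie lowest.

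Genes that act on these proteases but are not among the 85 were taken as lists. Of 10 tested activators, 4 were lower (5.2% of all genes) and 0 higher (5.22%) in APCs than in FIPs: the proprotein convertase Pcsk6 (2616 in APCs, 14751 in FIPs), urokinase Plau (394 and 2912), its receptor Plaur (149 and 499) and Plat (3991 and 10384). MLCs were lower than the other populations in Pcsk5, with 620 against 6661 in SMCs, 5348 in APCs, with 5810 in FIPs, and higher in Plaur, with 1687 against 206, 149 and 499. Furin, a convertase that activates Mmp14, was called in no pair.

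Among 10 other inhibitors, MLCs were lower than FIPs in 4 (12.5% of all genes) and higher in 5 (18.6%). Reck, a membrane-anchored inhibitor of Mmp2 and Mmp14, averaged 758 ± 36.6 in MLCs, 4754 ± 323 in SMCs, 4553 ± 209 in APCs, with 7492 ± 329 in FIPs (SD, n = 4 each). Reck and Mmp2 were both lowest in MLCs, but Reck was highest in FIPs and Mmp2 in APCs. Slpi, an inhibitor of serine proteases, averaged 3666 in MLCs, 57.5 in SMCs, 3.16 in APCs, with 7.47 in FIPs, and Spock3, a testican, averaged 2613, 208, 4.78 and 18.5. Of 8 sheddase adaptors, which steer Adam10 or Adam17, 4 were higher in MLCs than in each other population (10.6% of all genes): Tspan15, Tspan5 and Tspan33, partners of Adam10, and Rhbdf2, a partner of Adam17. Tspan15 averaged 741 in MLCs, 59.7 in SMCs, 18.6 in APCs, with 11.8 in FIPs. The same list had 1 gene lower in MLCs than in SMCs and in FIPs, Tspan14, also an Adam10 partner, at 571 in MLCs, 1745 in SMCs and 1518 in FIPs.

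Of 10 other matrix and cell surface proteases, MLCs were lower in 4 and higher in 2 against SMCs (13.5% and 14.4% of all genes), lower in 4 and higher in 1 against APCs (11.8% and 17.7%), and lower in 5 and higher in 1 against FIPs (12.5% and 18.6%). The higher ones were Dpp4 in all 3 pairs and the secreted serine protease Htra1 against SMCs (log2 fold change 1.56). Ctsk, a collagen-cutting cathepsin, averaged 229 in MLCs, 2618 in SMCs, 2128 in APCs, with 2701 in FIPs, and Fap, a fibroblast surface protease, averaged 158 in MLCs, 831 in SMCs, 1947 in APCs, with 1757 in FIPs. Dpp4, a relative of Fap also used here as a FIP marker, was highest in MLCs, at 8805 against 340 in SMCs, 52.6 in APCs, with 2053 in FIPs. Of the procollagen-processing genes, Bmp1 averaged 6963 in MLCs, 16305 in SMCs, 15660 in APCs, with 24076 in FIPs, and Pcolce2, an enhancer of Bmp1, averaged 8.62, 663, 76.1 and 1089, with APCs lower than FIPs by 3.84 on the log2 scale. The Adam relative Adamdec1 was at 0 in all 4 MLC libraries and averaged 42.6 in SMCs, 31.5 in APCs, with 89.5 in FIPs.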

How the data were processed

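Total RNA of the sorted cells went into libraries of the NEBNext Ultra II kit for RNA, as the labels' protocols state. The deposited table holds a normalized signal that the authors made, read counts divided by 1 factor per library, for 27179 genes and 16 libraries. Tools named in the submitters' processing notes, without role or order, are DESeq2 1.6.3, featureCounts 1.4.6, HISAT2 2.0.1 and Trim Galore 0.4.1, with the build GRCm38 (mm10). For strand setting and annotation, the sources used here give nothing. The columns headed SMLCs were taken as the SMCs of the sample titles, since no other title fits them. The 1275 genes without a symbol held 0.0812% to 0.135% of a library's values.

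Values were whole multiples of a step in each library (100% of values above 0 came out whole within 0.01), which gave the reads back. Steps near 1 kept FIPs replicate 1 and APCs replicate 2 out of the count tests, which ran on 14 libraries. Genes of at least 10 in at least 4 libraries (15024) were tested with limma 3.58.1 in R 4.3.3 (trend) on log2(value + 1), in 1 model of the 16 libraries. Fold changes are on that scale and understate changes of low genes. Tests were two-sided with Benjamini-Hochberg adjustment within a pair, and calls needed adjusted p under 0.05 and a log2 fold change of at least 1 in size. edgeR 4.0.16 and DESeq2 1.42.0 served as alternatives, with other scalings, pseudocounts, filters, a replicate block and libraries left out. The model was tested on simulated data first. No library was a copy of another of its population (chi-square 5.25 to 28.7 per degree of freedom).

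Values of every library are given for the Timp genes, for up to 6 genes called higher and 4 called lower in 1 population than in each other with a mean of at least 100, and for the 3 leading genes between APCs and FIPs in each direction. Gene lengths and strands are from GENCODE M21 (GRCm38), and positions, overlaps and distances are from RefSeq. The genes and lists were chosen with earlier results of these data known.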

Additional observations from a re-analysis of the deposited data

Results flagged for a closer look

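In 7 of 92 groups of 4 libraries examined for the named genes, 1 library lay far from the other 3 by Dixon's test at its 95% level. Chance gives about 1 in 20 groups. APCs replicate 4 gave 3 of these. It had 752 normalized counts of Timp1, against 184 to 252 in the other APC libraries, 13071 of Adam12, against 15116 to 15403, and 1523 of Adam23, against 1156 to 1210. The same library held 2388 of Acta2, against 156 to 221.

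Replicate 3 of FIPs had 7949 of Timp3, against 6858 to 7009, and 71.6 of Adamts8, against 35.4 to 41.6. SMCs replicate 3, the shallowest library, had 203 of Adamts8, against 303 to 317. MLCs replicate 4 had 3205 of Adamts9, against 2830 to 2875.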

How the results depend on the processing

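The total number of genes called in each pair stayed within 1.5 times under every alternative run, but the split of APCs against FIPs, 5 higher and 8 lower, became 8 and 5 with equal library totals. Alternatives other than leaving out 1 library gave 26 to 33 for MLCs against SMCs, 25 to 30 for MLCs against APCs, 31 to 36 for MLCs against FIPs, 19 to 24 for SMCs against APCs and for SMCs against FIPs, and 11 to 14 for APCs against FIPs. Leaving out 1 library gave 28 to 30, 27 to 29, 31 to 33, 20 to 22, 17 to 23 and 11 to 13 in the same order, 10 to 14 genes higher and 18 to 19 lower in 1 population than in each other. Leaving out APCs replicate 4 and SMCs replicate 3 together, chosen after seeing the data, gave 29, 28, 33, 22, 20 and 11, and 11 higher and 18 lower. Scaling to equal library totals moved the median of all genes by 0.33 (MLCs against FIPs), 0.24 (APCs against FIPs), 0.22 (SMCs against FIPs) and 0.11 (MLCs against SMCs) on the log2 scale, and quantile normalization by -0.13 for MLCs against APCs and -0.12 for MLCs against FIPs. Of 2400 alternative values for 89 calls of 23 named genes, 53 lost the call and 0 changed direction. Those most often lost were Mmp3 in MLCs against FIPs (11 of 27 alternatives) and Adamtsl2 in APCs against FIPs (10 of 27). The Timp to Mmp ratio per kb with the longest transcript was 1.352 in MLCs, 0.7494 in SMCs and 0.8124 in FIPs, by construction of the lengths, and ranged over left-out libraries from 1.472 to 1.509, 0.7871 to 0.8333 and 0.8772 to 0.891, and from 0.3825 to 0.406 in APCs. Of 24 same-numbered pairs of libraries, 23 had r above 0 and 6 above 0.1 (median 0.0592, against -0.0189 in other pairs), and 13 of 16 libraries correlated best with their own number, a hint from the data of weak pairing. Since not every pair passed 0.1, the numbers were not taken to pair libraries; with the replicate block the counts were 28, 28, 32, 21, 22 and 13 called, 13 higher and 18 lower. Timp4 and the low sides of Mmp24, Mmp3, Mmp27, Mmp28 and Adamtsl2 had low values. Each of these genes had a fold change that moved by over 1.5 times under some alternative. For Mmp3 this was SMCs against APCs, with a log2 fold change of 1.75 to 3.59. There APCs replicate 4 held 142 normalized counts, against 7.15 to 30.4 in the other APC libraries. The part of depth in these moves was not tested.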
